A study of Arabidopsis thaliana with 8 samples.

Results

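The 7 genes described here are 4 cortex markers of the Arabidopsis root (AT1G09750, AT1G62500, AT1G62510 and AT5G02000), the ground tissue regulator JKD (AT5G03150), the receptor gene GSO1 (AT4G20140, also called SGN3) and the endodermis gene AT1G61590. They were taken by locus from the probe annotation, and each had 1 probe set that listed no other gene. They are 7 of 13333 genes with such a probe set, and all 7 were tested, with no filter on low values, among 22746 probe sets. The array study compared 3 cell populations sorted as protoplasts from root tips of 6 day old seedlings, labelled wild type columbia: cortex (n = 3 arrays), phloem sieve cells and companion cells (n = 2) and differentiating xylem (n = 3). Each population was collected by the green fluorescent protein of a marker line, and the labels do not name the promoters that drove it. Its stated purpose was a root expression map without overlap between cell types.

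Cortex and endodermis together form the ground tissue, the layers between epidermis and stele, and both descend from the same stem cells by asymmetric division. JKD is a C2H2 zinc finger protein of the INDETERMINATE DOMAIN family that acts with the GRAS factors SHORT-ROOT and SCARECROW in that division and in keeping the layers distinct. In the endodermis, GSO1 is a receptor kinase that senses small sulfated CIF peptides from the stele and directs closure of the Casparian strip, the barrier in the cell wall, and the cytoplasmic kinase SGN1, encoded by AT1G61590, acts downstream of it. Of the cortex markers, AT1G09750 encodes an aspartic protease (AED3), and AT1G62500, whose promoter is widely used as the cortex reporter CO2, and AT1G62510 encode secreted proline-rich proteins with an 8-cysteine domain. The function of AT5G02000 is left out here. SGN1, AED3, CO2 and the names of the CIF peptides below come from the literature, since the annotation lists those genes by locus tag alone.

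Values are MAS5 intensities on a linear scale, and differences are limma estimates of log2(intensity + 16), with their SE, which understate the change of dim probe sets. A fold is such a difference put on a linear scale, so it is a ratio of intensity + 16, not of intensity. Within a population the arrays correlated at 0.949 to 0.984 (Pearson's r over all probe sets, which do not count as replicates), and between populations at 0.719 to 0.857. Some control probe sets moved with the populations: the 3'/5' ratio of GAPDH was 1.21 to 1.49 on cortex arrays, 1.77 to 2.15 on phloem arrays and 1.53 to 2.63 on xylem arrays, and that of ubiquitin was 2.66 to 2.81, 2.09 to 2.46 and 1.70 to 2.10. The actin ratio was 5.21 to 6.31, 7.48 to 8.64 and 5.26 to 9.69, with the xylem range overlapping both others. For GAPDH and ubiquitin the phloem and xylem ranges overlapped too. Spike-in control probe sets had a geometric mean of 356 to 373 on cortex arrays, 527 and 592 on phloem arrays and 678 to 773 on xylem arrays. The part of these differences in the results below was not tested. In bulk samples of this kind, fewer cells of a type and less RNA per cell cannot be told apart. No detection calls were given, so intensities near the added 16 are not shown to exceed background.

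Most of these genes were highest in cortex: 3 of the 4 cortex markers, JKD and GSO1 stood above both vascular populations, AT1G61590 stood above xylem only, and the marker AT1G62500 differed in no contrast. Between cortex and phloem 27.0% of all probe sets passed the test, 14.8% higher and 12.2% lower in cortex, and of the 7 genes 5 were higher and 0 lower. Between cortex and xylem 42.6% passed, 29.1% higher in cortex, and 6 of the 7 genes were higher. Between phloem and xylem 42.4% passed, 28.5% higher in phloem, and 3 of the 7 were higher (AT1G09750, JKD and AT1G61590). The same 5 genes were higher in cortex in both of its contrasts, which held for 9.63% of all probe sets, and had every cortex array above every other array, which held for 17.5%. The median difference of the 7 genes was 2.14 from phloem and 3.07 from xylem, beside 0.03 and 0.14 over all probe sets. The contrasts share arrays, so these counts are not independent. Centring each array on its median moved the median of all probe sets for cortex minus xylem to -0.29, and scaling to the spike-ins moved it to 0.76. Every difference of the 7 genes that passed between cortex and another population kept its direction and passed under all 18 alternatives.

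The aspartic protease gene AT1G09750 was far brighter in cortex than in both vascular populations. It read 2979, 2232 and 2652 on the cortex arrays, 44.0 and 42.2 on the phloem arrays, and 9.27, 22.8 and 16.1 on the xylem arrays. The cortex arrays did not overlap with any other, and both phloem arrays lay above the xylem arrays. Against phloem the difference was 5.47 (SE 0.22), 44.3-fold, with a limma adjusted p of 1.03e-06, and against xylem 6.37 (SE 0.20), with 7.99e-08. The xylem values lie around the added constant, so the size of that difference is not fixed: it was 7.34 with 1 added in its place and 5.06 with 64 added. The difference from phloem moved less, to 5.88 with 1 added and 4.64 with 64 added. Phloem exceeded xylem by 0.91 (SE 0.22; adjusted p = 0.0103), a call that was lost under 5 of 18 alternatives, among them quantile normalization (0.51, adjusted p = 0.107) and leaving out either phloem array (adjusted p = 0.0600 and 0.0525).

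AT1G62510 read 1304, 1118 and 962 in cortex, 2.59 and 15.3 in phloem, and 1.44, 1.82 and 2.46 in xylem. Every vascular value lay under the added constant, so the phloem and xylem arrays give no order. Cortex was higher than phloem by 5.56 (SE 0.26; adjusted p = 1.98e-06) and higher than xylem by 5.99 (SE 0.23; adjusted p = 2.22e-07). These sizes rest on the constant: with 1 added in its place they were 7.19 and 8.61, and with 64 added 4.03 and 4.17.

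AT5G02000 had a smaller contrast. It read 283, 257 and 306 in cortex, with 30.6 and 37.2 in phloem and 13.7, 22.1 and 23.2 in xylem, again with no overlap between cortex and the rest. The difference was 2.58 (SE 0.22), 5.97-fold, from phloem (adjusted p = 5.01e-05) and 3.07 (SE 0.19) from xylem (adjusted p = 3.13e-06). With 1 added the differences were 3.02 and 3.81, and with 64 added 1.82 and 2.05. It also varied least among the 7 genes across cortex arrays, with a coefficient of variation of 8.62%, against a median of 14.0% over the 11330 probe sets with a cortex mean of 64 or more.

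The probe set of AT1G62500 showed no cortex excess. Its intensities were 8.72, 15.8 and 24.2 in cortex, 34.8 and 16.6 in phloem, and 12.5, 19.3 and 4.55 in xylem, and the 3 populations overlapped. On none of the 8 arrays did it reach the median probe set. Cortex minus phloem was -0.37 (95% interval -1.06 to 0.33; adjusted p = 0.456), and cortex minus xylem was 0.20 (-0.42 to 0.83; adjusted p = 0.607). For the signal of this probe set, the intervals leave out a cortex excess of the size seen for the other 3 markers. They do not bound the transcript, since values this dim are not shown to exceed background. In the RefSeq annotation AT1G62500 and AT1G62510 are neighbours on chromosome 1, with 0 annotated genes between them. Of these adjacent genes of the same protein family, the probe set of the latter was bright in cortex and that of the former dim in all populations.

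**Figure D1:**
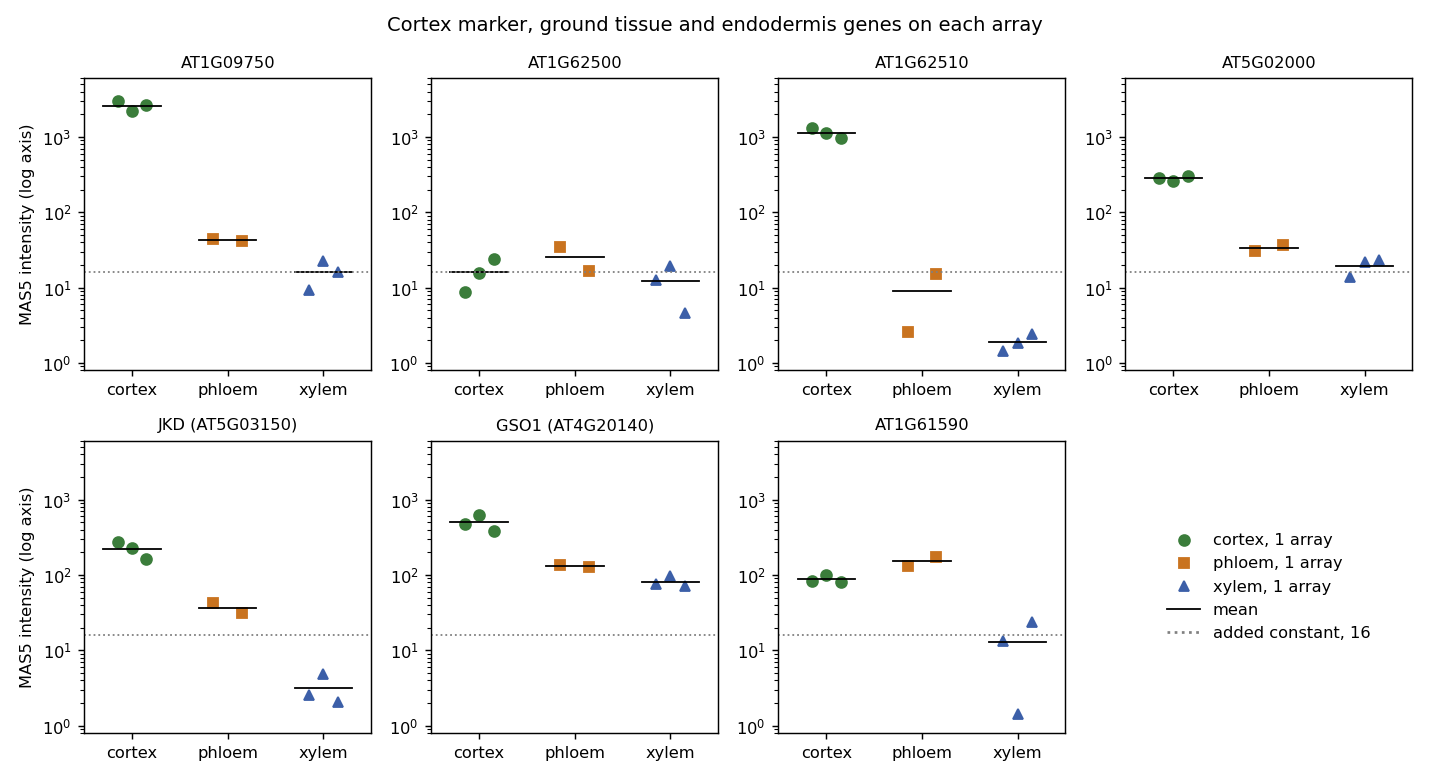
MAS5 intensity on a log axis for each of the 7 genes, with 1 point for each cortex (n = 3), phloem (n = 2) and xylem (n = 3) array, a bar at the population mean and a dotted line at the added constant of 16. The cortex points stand clear of all others in 5 panels, those of AT1G62500 do not, and AT1G61590 has its highest points, 132 and 175, in phloem.

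JKD had its highest level in cortex and its lowest in xylem. The intensities were 277, 225 and 161 in cortex, 42.4 and 31.5 in phloem, and 2.53, 4.82 and 2.08 in xylem. The order was cortex, phloem, xylem, and each neighbouring pair passed the test. Every cortex array lay above all others, as for 17.5% of all probe sets. Cortex exceeded phloem by 2.14 (SE 0.26; adjusted p = 0.000397), and phloem exceeded xylem by 1.46 (SE 0.26; adjusted p = 0.0018). Cortex exceeded xylem by 3.60 (SE 0.23; adjusted p = 3.52e-06). The xylem values lay below the constant, so with 1 added the differences from xylem were 5.77 for cortex and 3.24 for phloem, and with 64 added they were 2.07 and 0.59. Phloem minus xylem was 0.85 after median centring, and it passed under all 18 alternatives. The coefficient of variation over the cortex arrays was 26.3%, close to that of GSO1 (25.4%).

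GSO1 was measured above the median probe set on all 8 arrays, and cortex was again highest. It read 475, 635 and 385 in cortex, 136 and 127 in phloem, and 76.7, 95.7 and 72.2 in xylem. Cortex stood 1.77 (SE 0.23), 3.42-fold, above phloem (adjusted p = 0.000611) and 2.38 (SE 0.21), 5.20-fold, above xylem (adjusted p = 2.29e-05). Both phloem arrays lay above the xylem arrays, but that difference of 0.60 (95% interval 0.08 to 1.13) did not pass (adjusted p = 0.0642). It passed without xylem replicate 2 (0.71, adjusted p = 0.0372), and it was -0.01 after quantile normalization.

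AT1G61590, which encodes the kinase downstream of GSO1, had its highest mean in phloem. Its intensities were 84.2, 100.1 and 79.8 in cortex, 132 and 175 in phloem, and 13.3, 1.43 and 23.6 in xylem. Both phloem arrays read above every cortex array, as they did for 25.9% of all probe sets, and xylem lay below both populations. Cortex minus phloem was -0.70 (95% interval -1.46 to 0.07; adjusted p = 0.175), which did not pass. It passed when xylem replicate 2, which bears only on the pooled spread here, was left out (-0.70, adjusted p = 0.0472), and when the cortex and phloem arrays were fitted alone (adjusted p = 0.0390). After median centring it was -0.52 (adjusted p = 0.274) and after spike-in scaling -0.16 (adjusted p = 0.699). Cortex exceeded xylem by 1.93 (SE 0.30; adjusted p = 0.000822), and phloem exceeded xylem by 2.62 (SE 0.34; adjusted p = 0.000307). The xylem values lie around or below the constant, and these differences were 3.22 and 4.01 with 1 added while cortex minus xylem was 0.99 with 64 added. Whether the cortex-to-phloem differences of AT1G61590 and GSO1 differ from each other was not tested.

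**Figure D2:**
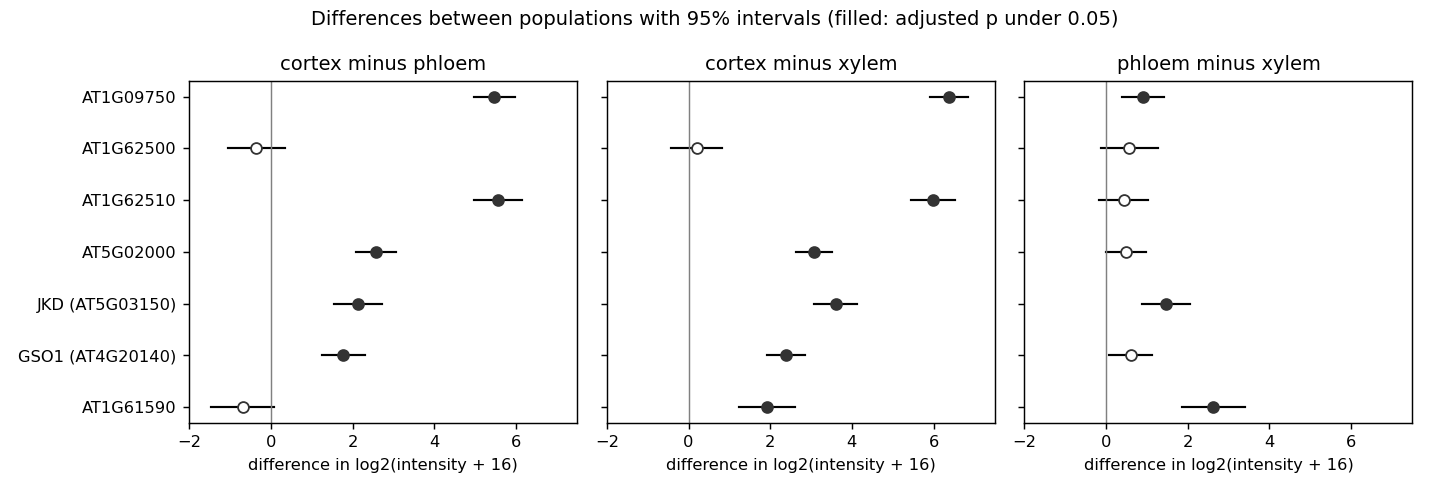
Differences between populations in log2(intensity + 16) for the 7 genes, with 95% intervals from the fit over all 8 arrays, and filled points where the adjusted p was under 0.05. AT1G62500 has intervals that span 0 in all 3 panels, and AT1G61590 is the only gene with a filled point of over 2 between phloem and xylem.

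Across the 8 arrays, which share 3 population means, the profiles of AT1G09750, AT1G62510, AT5G02000, JKD and GSO1 correlated with each other at 0.942 to 0.998 (Pearson's r of log2 values, given as a description). AT1G61590 correlated with those 5 at 0.427 to 0.650, and AT1G62500 with the other 6 at -0.04 to 0.33. Among 6028 other single-gene probe sets brighter than the median, those closest to AT1G09750 were AT5G11420 and AT1G79720 (r of 0.997 for both) and AT3G05150 (0.996). AT3G05150 read 2470, 2561 and 2533 in cortex, 46.3 and 32.6 in phloem, and 1.38, 3.93 and 3.40 in xylem. It was also the closest to AT5G02000 (0.994), while AT1G76470 (0.998) was the closest to AT1G62510.

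JKD was most like UGT72E2 (AT5G66690, r = 0.998), a glucosyltransferase of monolignols, followed by AT5G57970 and NQR (AT1G49670), both at 0.996. UGT72E2 read 4219, 3521 and 2427 in cortex, 677 and 545 in phloem, and 145, 145 and 120 in xylem. GSO1 was most like AT1G19130 (0.9995), AT3G09410 (0.998) and the plastid division gene FTSZ2-2 (AT3G52750, 0.993). An r takes no account of the size of a change: AT1G19130 was higher in cortex by only 0.71 than in phloem and 0.97 than in xylem. The closest to AT1G61590 were the cytosolic GAPDH gene GAPC2 (AT1G13440, 0.995), the F-box gene SKP2A (AT1G21410, 0.994) and AT4G33400 (0.990). GAPC2 changed less, with xylem lower by 0.69 than cortex and 0.86 than phloem, and both calls were lost under median centring. SKP2A read 222 and 234 in phloem, 117, 156 and 94.6 in cortex, and 18.9, 5.74 and 30.8 in xylem. No probe set exceeded 0.893 with AT1G62500, the value of AT1G05840. Between 165 and 399 of the 6028 probe sets exceeded an r of 0.95 with each of the other 6 genes, so a high r was common.

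The pathway around GSO1 was read from a list of 11 genes, of which 6 were measured. Among these, the peptide ligand gene for CIF2, AT4G34600, read 1311 and 1647 in phloem, 17.7, 32.3 and 18.5 in cortex, and 60.1, 111 and 65.1 in xylem. It was lower in cortex than in phloem, at -5.28 (SE 0.28; adjusted p = 4.01e-06), and lower in cortex than in xylem, at -1.27 (SE 0.25; adjusted p = 0.00324, lost under 1 alternative). The gene for the peptide thus stood highest in the phloem population and that for its receptor in cortex.

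Of the remaining measured ligand genes, CIF3 (AT5G04030) and CIF4 (AT1G28375) were dim. They ran from 2.77 to 17.7 and passed in no contrast in the reported fit. Cortex minus phloem of CIF3 passed under 4 alternatives and phloem minus xylem of CIF4 under 3. TWS1 (AT5G01075), a ligand of the same receptor known from the embryo, read 87.3, 44.8 and 88.0 in xylem and 33.5, 22.9 and 43.5 in cortex, and was lower in cortex at -0.84 (SE 0.27; adjusted p = 0.0328), a call lost under 8 of 18 alternatives. Of the 6 genes, 1 was higher (GSO1) and 1 lower (AT4G34600) in cortex than in phloem. Against xylem, 2 were higher (GSO1 and AT1G61590) and 2 lower (AT4G34600 and TWS1). The medians were -0.22 and 0.20, beside 0.03 and 0.14 over all probe sets. Over all probe sets 14.8% were higher and 12.2% lower in cortex than in phloem, and 29.1% and 13.5% for xylem, so the counts of higher genes are near the background. The higher genes are members already counted above. None of the measured ligand genes passed as higher in cortex in the reported fit. Of 10 Casparian strip and endodermis genes, only GSO1 and AT1G61590 had a single-gene probe set in the annotation. None of 12 suberin genes had one. The others may lie among the 8730 probe sets without an entry, so the endodermal share of any population could not be read from other named markers.

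**Figure D3:**
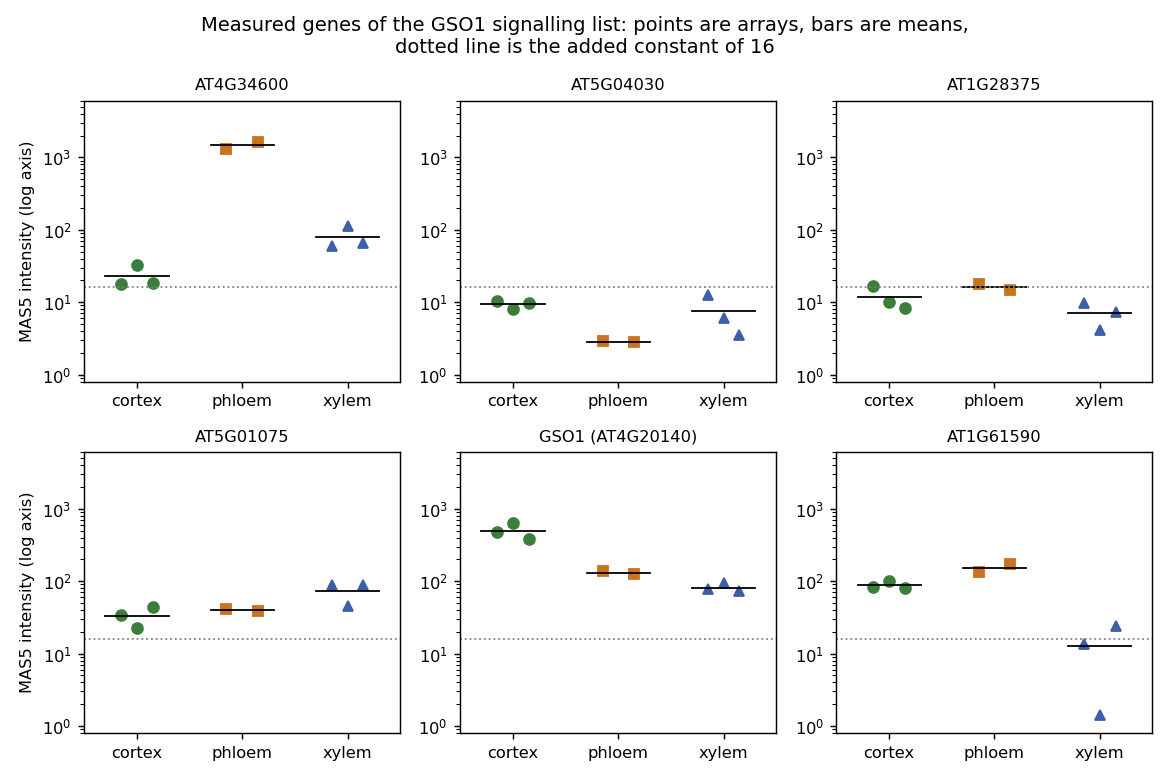
MAS5 intensity on a log axis for the 6 measured genes of the GSO1 signalling list, with 1 point for each array, a bar at the population mean and a dotted line at 16. The ligand gene AT4G34600 is highest in phloem (1311 and 1647), GSO1 in cortex (385 to 635), and AT1G61590 is lowest in xylem (1.43 to 23.6).

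Few other regulators of the ground tissue could be named: 3 of 14 listed genes had a single-gene probe set in the annotation, JKD among them. SCL23 (AT5G41920), a GRAS factor related to SCARECROW, read 56.8, 64.9 and 39.3 in cortex, 12.8 and 28.8 in phloem, and 18.6, 12.7 and 4.20 in xylem. Its cortex arrays all lay above the others, as for 17.5% of all probe sets. It was higher in cortex than in xylem by 1.34 (SE 0.27; adjusted p = 0.00362), and the difference of 0.94 from phloem did not pass (adjusted p = 0.0511) but did under 9 of the 17 alternatives that could be run for it. BIB (AT3G45260), which acts with JKD, was dim at 4.89 to 33.8 and did not pass against either population in the reported fit. Under spike-in scaling it was higher in cortex than in phloem (0.92, adjusted p = 0.0163) and xylem (1.11, adjusted p = 0.00205).

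Within the INDETERMINATE DOMAIN family, 5 of 16 genes were measured. In the reported fit JKD was the only one higher in cortex in either contrast. This count of 1 of 5 is near the 14.8% and 29.1% of all probe sets. Under spike-in scaling BIB was also higher in both contrasts, and AT5G60470 was higher than in xylem (0.85, adjusted p = 0.00475). IDD16 (AT1G25250) ran the other way from xylem, with 28.3, 19.6 and 26.2 in cortex and 47.2, 56.4 and 50.8 in xylem, a difference of -0.73 (SE 0.18; adjusted p = 0.00959, lost under 1 alternative). The family's median difference was 0.41 from phloem and 0.43 from xylem, beside 0.03 and 0.14 over all probe sets.

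Of the proline-rich, 8-cysteine family to which AT1G62500 and AT1G62510 belong, 10 of 23 genes were measured. Of the 10, 3 were higher in cortex than in phloem and 4 than in xylem, beside 14.8% and 29.1% of all probe sets. Along with AT1G62510, AT2G45180 and AT4G22460 were higher in cortex than in both other populations, which held for 9.63% of all probe sets. AT2G45180 read 4502, 4242 and 3666 in cortex, 181 and 127 in phloem, and 28.0, 43.3 and 40.5 in xylem, differences of 4.63 (SE 0.21; adjusted p = 1.66e-06) and 6.29 (SE 0.19; adjusted p = 6.75e-08). For AT4G22460 the values were 2794, 3056 and 2100, then 175 and 180.5, then 24.0, 32.1 and 40.2, and the differences were 3.77 (SE 0.22; adjusted p = 5.76e-06) and 5.79 (SE 0.19; adjusted p = 1.14e-07). Both family members kept more signal in phloem than in xylem, by 1.66 (SE 0.21) and 2.02 (SE 0.22), and both of these differences passed. AT4G12530 passed only against xylem, at 1.32 (SE 0.35, adjusted p = 0.0148, lost under 3 alternatives), and against phloem it passed under 7 alternatives. The other 6 genes ran from 2.03 to 66.9 and passed in neither cortex contrast. Among them, AT1G12100 read 38.6 to 48.7 in cortex and 12.7 to 32.9 elsewhere, and passed against phloem under 7 alternatives and against xylem under 3. AT4G12490 passed against xylem under 3, AT4G22470 against xylem under 1 and AT2G10940 against phloem under 1. The median difference over the 10 was 0.66 from phloem and 0.68 from xylem, beside 0.03 and 0.14 over all probe sets. Probe sets can bind transcripts of related genes, and how far these family members share signal was not tested.

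**Figure D4:**
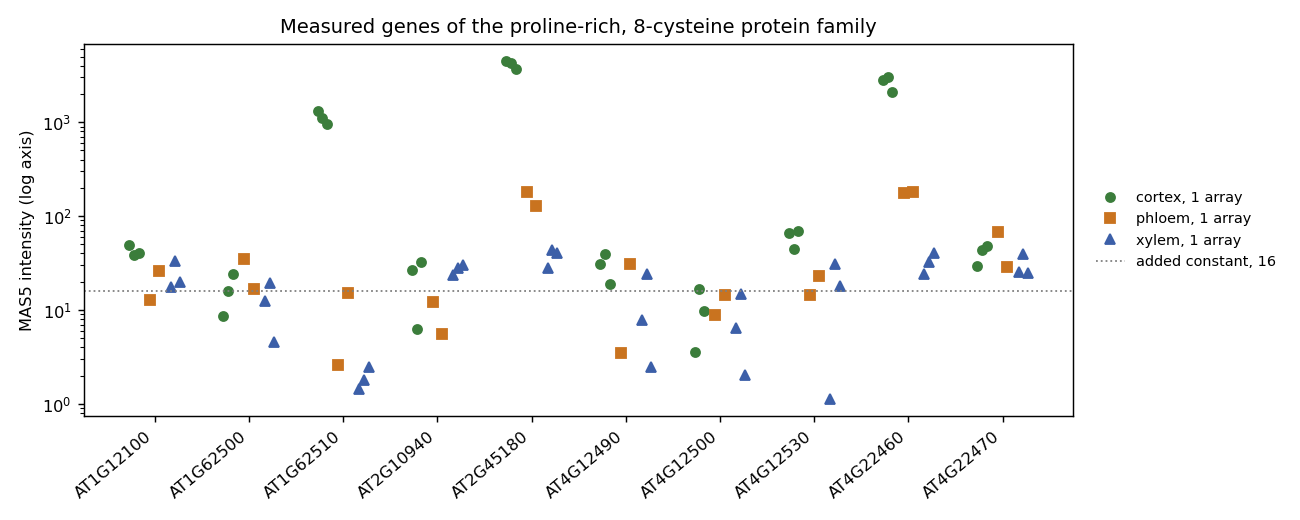
MAS5 intensity on a log axis for the 10 measured genes of the proline-rich, 8-cysteine family, with 1 point for each array and a dotted line at 16. AT1G62510, AT2G45180 and AT4G22460 have cortex points between 962 and 4502, while AT1G62500 stays between 4.55 and 34.8 in every population.

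Of a list of 7 aspartic proteases that holds AT1G09750, 3 were measured, that gene itself, NANA and ASPG2. NANA (AT3G12700) read 1638, 1511 and 1546 in cortex, 82.2 and 127 in phloem, and 26.7, 24.7 and 4.36 in xylem, and was higher in cortex by 3.74 (SE 0.33; adjusted p = 6.66e-05) and 5.59 (SE 0.29; adjusted p = 1.11e-06). ASPG2 (AT3G20015) was higher in cortex than in xylem by 1.22 (SE 0.30; adjusted p = 0.00988, lost under 2 alternatives) and differed from phloem by -0.49 (adjusted p = 0.347). Of 6 listed cortex markers, 1 beyond the 4 above was measured, the nitrate transporter family gene NPF6.4 (AT3G21670). It read 631, 497 and 610 in cortex, 2.80 and 6.21 in phloem, and 5.61, 11.4 and 6.82 in xylem. It was higher in cortex by 4.86 (SE 0.22, adjusted p = 1.64e-06) and 4.64 (SE 0.20, adjusted p = 3.45e-07). With the markers already counted above, 4 of 5 measured cortex markers were higher in cortex in both contrasts, beside 9.63% of all probe sets.

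Markers of other cell types were summed beside these values. The 6 measured of 10 phloem genes summed to 4628 and 4936 on the phloem arrays, 289 to 341 on the cortex arrays and 132 to 195 on the xylem arrays. Of the 6, 5 were lower in cortex than in phloem, beside 12.2% of all probe sets. The exception, OPS (AT3G09070), read 4.92 and 14.6 in phloem and 2.49 to 15.7 in cortex. Within that list the cortex arrays read 1.74 to 8.76 for CLE26, 76.9 to 104 for SWEET11 and 144 to 207 for CLE41. Against xylem, 2 of the 6 were higher in cortex, beside 29.1% of all probe sets. These were CLE41, by 2.31 (SE 0.19, adjusted p = 1.57e-05), and AT5G02460, by 0.68 (SE 0.18, adjusted p = 0.0131, lost under 2 alternatives). The 3 measured of 11 secondary wall genes summed to 12799 to 14879 in xylem, 280 to 498 in cortex and 168 and 210 in phloem, and within that list the cortex arrays read 1.69 to 3.21 for IRX15, 67.9 to 99.4 for IRX10 (GUT2, AT1G27440) and 210 to 396 for IRX15-L, which was higher in cortex than in phloem by 1.36 (SE 0.28; adjusted p = 0.0073), a call lost without phloem replicate 1 (1.13, adjusted p = 0.0743). Of 4 root hair genes, which belong to cells outside the 3 sorted types, EXPA7 and EXPA18 (both cell wall expansins) were measured. Their sum was 270.2 and 399.8 in phloem, 94.2 to 133 in cortex and 18.1 to 53.0 in xylem. The part of such cells in the level of AT1G61590 was not tested. None of the listed genes for non-hair epidermis, root cap and pericycle (2 each) had a single-gene probe set.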

How the data were processed

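The deposited values are linear intensities, 1 per probe set and array, which the authors made with MAS5, per the submitters' processing notes. For its version and scaling target, the sources used here give nothing. All 8 sample columns were used. Of 22810 probe sets, 64 controls were left out. Genes were named through the platform annotation and a RefSeq table of assembly TAIR10.1: 13513 probe sets had 1 gene, 503 had several, and 8730 without an entry were not named. No sequence or coordinate is given.

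Values were fitted as log2(intensity + 16) in R 4.3.3 with limma 3.58.1 (trended eBayes, 1 mean per population, all 8 arrays, 5 residual degrees of freedom). Tests were two-sided with Benjamini-Hochberg adjustment over all 22746 probe sets of a contrast and a threshold of 0.05. The code was tested on simulated data. The number of arrays limits precision. The labels call arrays of a population biological replicates without naming separate plants, so p-values measure the spread between arrays, which may be partly technical.

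The members, lists and tests were chosen with earlier results of these data known. Named genes are the 7 members, all measured list genes and, per member, the 3 single-gene probe sets above the median with the highest r over the 8 arrays. A gene with several probe sets is represented by the brightest. A list gene is called measured if it had a single-gene probe set in the annotation. Others may lie among the probe sets with several genes or without an entry. Each result was recomputed under 18 alternatives, or 17 where the dim filter removed the gene: the added constant, 4 scalings, a filter keeping probe sets with 64 or more on at least 2 arrays, no trend, only the arrays compared, a replicate block, and each array left out. Plots were drawn with Python 3.11.15 and matplotlib 3.10.9.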

Additional observations from a re-analysis of the deposited data

How the results depend on the processing

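The number of probe sets that passed between cortex and phloem was 6140 as reported and 9641 after spike-in scaling, and ran from 3606 (without phloem replicate 2) to 7489 (without xylem replicate 2) when each array was left out. A lone phloem array was taken to vary like the arrays of the other groups. The counts of the other contrasts stayed within 1.5 times of 9696 for cortex and xylem and of 9639 for phloem and xylem, ranging from 8209 to 9921 and from 7101 to 10204 over the arrays left out. The share of calls higher in the first population depended on scaling. It was 54.7% for cortex over phloem without scaling, 66.9% with median centring and 80.8% with spike-ins. For cortex over xylem it was 68.3%, and quantile normalization, median centring and spike-ins gave 51.0%, 36.2% and 90.2%. For phloem over xylem it was 67.2%, and the same 3 gave 47.9%, 28.8% and 79.3%. The causes were not tested. Of the 7 genes, calls changed in 4 of the 21 differences: phloem over xylem for AT1G09750 was lost under 5 alternatives, that of GSO1 was gained under 3 and that of AT5G02000 under 1 (spike-in scaling, 0.65, adjusted p = 0.0411), and cortex minus phloem of AT1G61590 was gained under 3. No difference past the threshold changed sign. Below it, 5 differences did in 7 cases, 5 of them under median centring or quantile normalization in phloem minus xylem. The filter on dim probe sets removed AT1G62500 and some list genes, SCL23 among them, so these had 17 alternatives. Same-numbered arrays of different populations had deviations that correlated at -0.10 to 0.15, so the numbers were not read as pairs. With a replicate block the counts were 5579, 9557 and 9114, and no call of the 7 genes changed.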
